A study of Mus musculus with 16 samples.

Results

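The nuclear genes of the mitochondrial respiratory chain and of ATP synthase were examined in cultured mouse cortical neurons after oxygen-glucose deprivation (OGD), with and without the antidepressant tianeptine (TIA). They were taken by name, as the symbols beginning with Nduf (complex I), Sdha to Sdhd (complex II), Uqcr (complex III), Cox4 to Cox8 (complex IV) and Atp5 (ATP synthase). Of 100 matching symbols, 8 are named as pseudogenes and were left out, and 3 genes (*Cox4i2*, *Ndufa4l2* and *Cox8c*) had a mean under 0.5 FPKM over the 16 cultures. The remaining 89 genes, of 53679 in the table and 16313 with a mean of at least 0.5 FPKM, are described here. No fold change entered the rule. They are 7 core subunits, 29 accessory subunits and 8 assembly factors of complex I, 4 subunits of complex II, 8 of complex III, 11 ubiquitous subunits and 5 tissue or hypoxia isoforms of complex IV, the supercomplex factor *Cox7a2l*, and 16 genes of ATP synthase.

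The respiratory chain in the inner mitochondrial membrane passes electrons from NADH (complex I) and succinate (complex II) over complex III to oxygen at complex IV, and ATP synthase uses the resulting proton gradient to make ATP. Neurons draw most of their ATP from this pathway, and without oxygen it stops. Most subunits are encoded in the nucleus and imported, while a small core is encoded by mitochondrial DNA, so that the complexes depend on transcripts from both genomes.

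RNA-seq was carried out on primary cortical neurons of wild-type mice, prepared at embryonic day 15. On day in vitro 8 (DIV 8) all cultures received vehicle (VEH) or 10 µM TIA. After 24 hours, on DIV 9, they underwent a sham procedure (CONTROL) or 3 hours of OGD, in which both oxygen and glucose are withdrawn, and RNA was extracted 6 hours after OGD. This gives the groups CONTROL-VEH (cultures 1 to 4), CONTROL-TIA (5 to 8), OGD-VEH (9 to 12) and OGD-TIA (13 to 16), with 4 biological replicates each. The labels name no pairing between groups, and none was modelled. The vehicle cultures are called untreated in the labels.

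Values are FPKM (fragments scaled by transcript length and library size) summed over the isoforms of a gene. Log2 fold changes were computed from log2(FPKM + 0.1), which understates the change of genes with low levels. A gene was called with a padj (limma, Benjamini-Hochberg over all genes tested) of at most 0.05, and called a DEG if the log2 fold change also passed 1 in either direction. The depth estimated from the smallest steps in the values was 20000000 to 25900000 reads per culture. These steps also carry the scaling between libraries, and the upper end lies above the aligned reads per sample that the study reports. Summed levels of 7 neuron markers were 2639 to 3135 FPKM in CONTROL-VEH, 2670 to 2796 in CONTROL-TIA, 1116 to 2366 in OGD-VEH and 1565 to 2673 in OGD-TIA. Markers of the oligodendrocyte lineage (7 genes) summed to 171 to 206 FPKM in CONTROL-VEH and 232 to 637 in OGD-VEH, those of astrocytes (6 genes) to 479 to 775 and 640 to 1659, and those of microglia (6 genes) to at most 3.03 in any culture. In bulk cultures fewer cells of a type and less RNA per cell cannot be told apart.

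Respiratory chain transcripts were abundant in every group. The 89 genes made up between 2.81 and 3.25% of the summed FPKM of a culture. The ubiquitous subunits of complex IV had the highest median level (697 FPKM), followed by the F1 and stalk subunits of ATP synthase (641), complex III (476), the membrane subunits of ATP synthase (447), complex I accessory (228) and core subunits (210.2) and complex II (109.8). Complex I assembly factors, which help to build the complex but are not part of it, were lower at 26.6 FPKM. *Cox6b1*, which links complex IV monomers on the side of the intermembrane space, had the highest level of all (2574 FPKM, mean of 16 cultures), and *Atp5b*, the catalytic beta subunit of ATP synthase, the next (2270.1). *Uqcrq*, a small subunit of complex III, had the highest summed level of its complex with 1070.1 FPKM. In complex I the accessory subunits ran from *Ndufa11* (14.7) to *Ndufa7* (805) and the core subunits from *Ndufs8* (46.8) to *Ndufs3* (288). The 4 genes of complex II ran from *Sdhb* (99.2 FPKM), the iron-sulfur subunit, to *Sdha* (165), the flavoprotein.

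**Figure D1:**
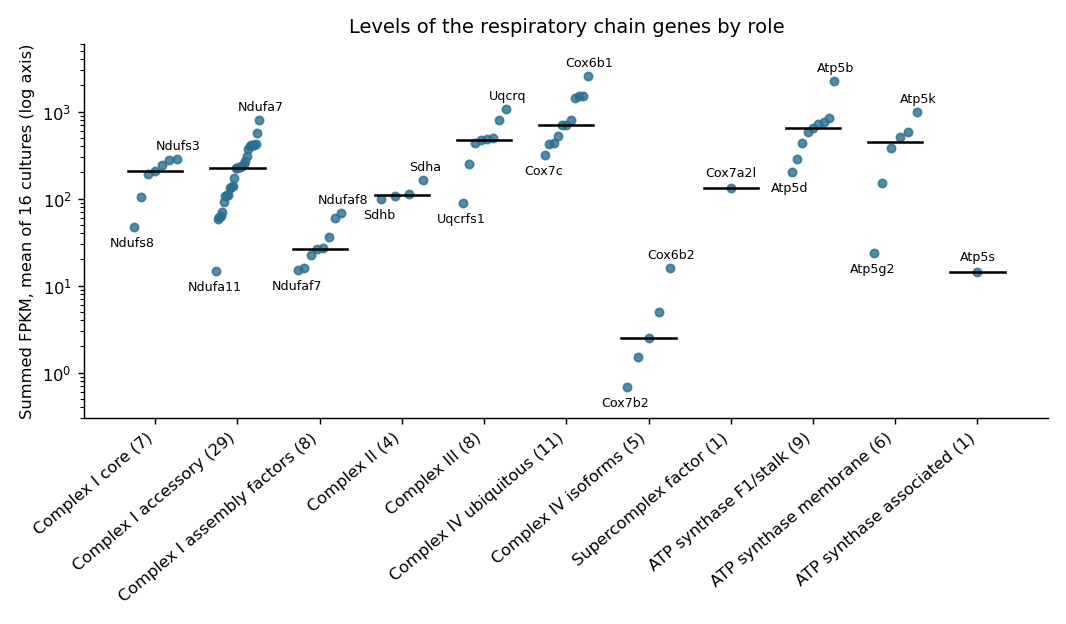
Mean summed FPKM of each of the 89 genes over the 16 cultures on a log axis, grouped by role, with the number of genes in parentheses and a line at the median of each group. Ubiquitous complex IV subunits sit highest (median 697 FPKM) and the tissue or hypoxia isoforms lowest (median 2.47 FPKM), and the highest and lowest gene of each group are named.

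Where a subunit exists in several isoforms, 1 gene dominated. *Cox4i1* was at 1526 FPKM, while its hypoxia-linked isoform *Cox4i2* never exceeded 0.365. *Cox6a1* (697 FPKM) far exceeded the heart and muscle isoform *Cox6a2* (2.47), and *Cox7a2* (526) exceeded the heart and muscle isoform *Cox7a1* (4.99). *Ndufa4*, counted today with complex IV, was at 1507 FPKM. Of the 3 genes for the c ring of ATP synthase, which encode the same mature protein, *Atp5g3* was highest (584 FPKM), then *Atp5g1* (151) and *Atp5g2* (23.6). Summed FPKM compares genes per length only as well as reads were assigned to isoforms. In 24 of the 89 genes the isoform with the most FPKM was not a protein-coding one, and in 59 genes it was shorter than 600 bases. *Atp5b*, for instance, had 39.9% of its FPKM in a processed transcript of 399 bases. In a second summary isoforms were weighted by their length relative to the mean length of all isoforms of the gene, expressed or not. With it *Sdha* moved from 165 to 329 and *Atp5l* from 513 to 147, *Sdhc* (72.7) was the lowest of complex II, and *Uqcrh* (646) lay above *Uqcrq* (611). These weighted values depend on isoforms without reads and are not levels per length. *Atp5l* had 99.7% of its FPKM in 1 protein-coding isoform of 544 bases, so its lower value reflects the lengths of its other isoforms. Reads shared with processed pseudogenes and between the c ring genes may have been split as well, and the 8 pseudogene symbols had means of 0 to 2.8 FPKM.

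The first comparison asked how OGD alone altered these transcripts. Most estimates were slightly above 0 in OGD-VEH versus CONTROL-VEH, but few genes passed the test. Of the 89 genes, 76 had a log2 fold change above 0, and the median was 0.19, against 0.10 for the 16346 genes tested. Only 6 genes were called, all of them higher: the complex I accessory subunit *Ndufb9*, the complex IV subunits *Cox6a1*, *Cox6b1* and *Cox6c*, and the ATP synthase membrane subunits *Atp5j2* and *Atp5k*. That is 6.74% of the 89 genes, near the 4.99% of all genes called higher. No member was called lower, where 3.45% of all genes were, and none was a DEG, where 4.09% of all genes were. An unadjusted p under 0.05 was found for 36 members (40.4%) and for 35% of all genes. With complete separation between the groups, 24 members (27%) were higher in all OGD-VEH cultures than in all CONTROL-VEH cultures, against 12.7% of all genes, and 1 member was lower (1.12%), against 9.95%. The count of 24 was 16 with the median-ratio scaling described below (all genes 10.4%). It was 39 without OGD-VEH culture 9 (all genes 25.7%), an omission that cannot lower it.

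*Ndufb9*, an accessory subunit of the membrane arm of complex I (chromosome 15, 58933756 to 58939488, plus strand), was at 169, 164, 151 and 159 FPKM in the CONTROL-VEH cultures and at 197, 214, 204 and 209 in the OGD-VEH cultures. Every OGD-VEH culture lay above every CONTROL-VEH culture. The means were 161 ± 7.68 and 206 ± 7.18 FPKM (SD, n = 4), a log2 fold change of 0.36 ± 0.08 (SE) with a padj of 0.04 in limma. The exact permutation test over the 70 assignments of 8 cultures gave p = 0.0286, two-sided, the smallest it can give, and gave the same value for each of the other 5 called genes. Every gene without overlap gets this value, so it adds nothing to the separation itself. Of all genes 12.7% were higher and 9.95% lower without overlap.

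*Cox6c* (chromosome 15, 35925886 to 35938246, minus strand) encodes a small nuclear subunit of complex IV. It was at 668, 601, 636 and 651 FPKM in CONTROL-VEH and at 711, 864, 821 and 879 in OGD-VEH, with no overlap. The log2 fold change was 0.35 ± 0.08 (SE, limma padj 0.0443). *Cox6a1* (chromosome 5, 115345642 to 115348981, minus strand), another small subunit, was at 664, 618, 662 and 692 FPKM in CONTROL-VEH and at 723, 863, 829 and 841 in OGD-VEH. Culture 9 was the lowest of the OGD-VEH cultures for both genes, yet above all controls. The log2 fold change of *Cox6a1* was 0.30 ± 0.08 (SE, limma padj 0.0485). *Cox6b1* (chromosome 7, 30616861 to 30626151, minus strand) was at 2677, 2249.9, 2367 and 2425 FPKM in CONTROL-VEH and at 2803, 3151, 2859.8 and 2951 in OGD-VEH. Its groups did not overlap, but the highest control came close to the lowest OGD-VEH culture, and the log2 fold change was 0.28 ± 0.07 (SE, limma padj 0.045).

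*Atp5k* and *Atp5j2* encode the small e and f subunits in the membrane part of ATP synthase, near the interface of its dimers. *Atp5k* (chromosome 5, 108433244 to 108434448, minus strand) was at 969, 882, 821 and 959 FPKM in CONTROL-VEH and at 1077, 1147, 1084 and 1208 in OGD-VEH. *Atp5j2* (chromosome 5, 145183698 to 145192062, minus strand), which the rule for named genes did not list and which is given because it was called, was at 372, 324, 335 and 383 FPKM in CONTROL-VEH and at 412, 456, 462 and 471 in OGD-VEH. Neither gene overlapped between the groups. The log2 fold changes were 0.32 ± 0.08 for *Atp5k* and 0.35 ± 0.09 for *Atp5j2* (SE, limma padj 0.0447 and 0.0455). All 6 differences correspond to between 1.21 and 1.28 times the control level.

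The 6 calls lay just inside the threshold, with padj from 0.04 to 0.0485, and did not hold in smaller sets of cultures. Leaving out any 1 of CONTROL-VEH cultures 1 to 4 or OGD-VEH cultures 10 to 12 left no member called, while without OGD-VEH culture 9 there were 26. The calls over all genes moved alike, from 816 higher to between 1 and 55 in the former omissions and to 2931 (17.9%) in the latter. The median of the members stayed at 0.15 to 0.21 in the omissions that left no call. With the cultures rescaled by their median ratio, which lowered the median of all genes from 0.10 to 0.02, the median of the members was 0.11 and 1 member was called higher (3.9% of all genes).

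**Figure D2:**
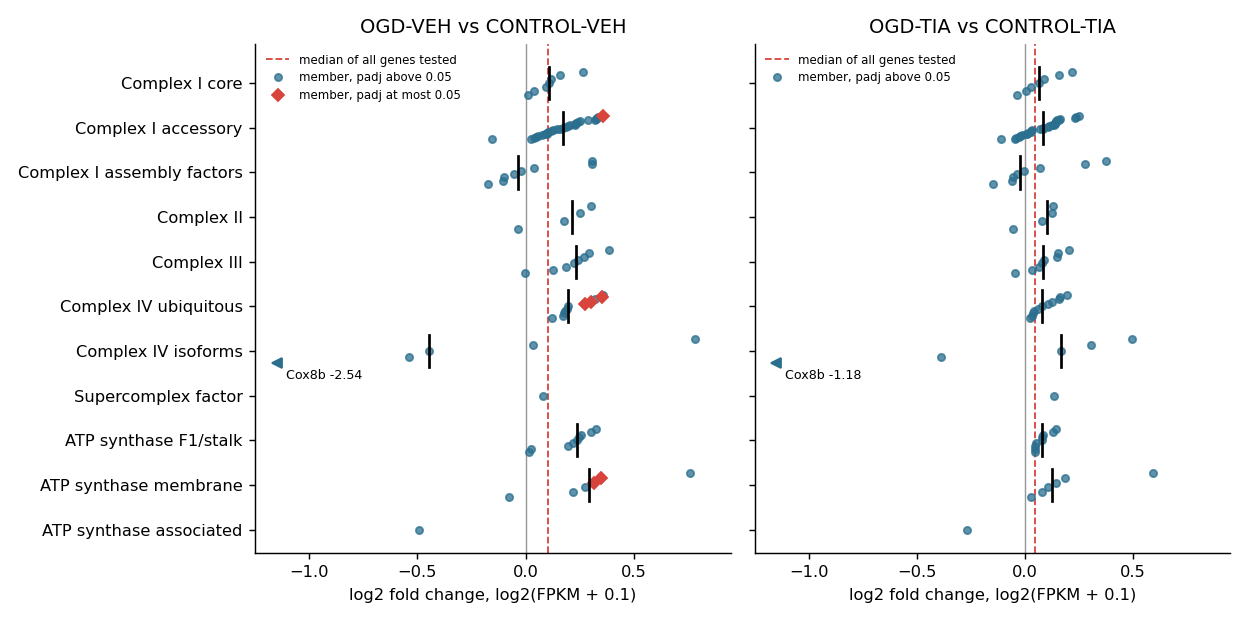
Log2 fold change of each of the 89 genes by role in the vehicle arm (left) and the TIA arm (right), with black lines at the median of each role, a dashed line at the median of all genes tested (0.10 and 0.04), diamonds for called genes and triangles for *Cox8b*, which lies beyond the axis at -2.54 and -1.18. In both panels the subunits sit mostly right of 0 and complex I assembly factors around 0, and the values of the left panel spread further to the right.

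By complex, the medians of the log2 fold change in OGD-VEH versus CONTROL-VEH were 0.15 for the 36 subunits of complex I, 0.21 for complex II, 0.23 for complex III, 0.20 for the 11 ubiquitous subunits of complex IV and 0.24 for ATP synthase. All 11 ubiquitous complex IV subunits were above 0, and so were 35 of 36 complex I subunits, 7 of 8 complex III subunits and 14 of 16 ATP synthase genes. In complex I the accessory subunits had a median of 0.17 with 1 of 29 called, and the core subunits, which carry the redox centres, a median of 0.11 with 0 of 7 called and none at an unadjusted p under 0.05. The 8 assembly factors of complex I with Nduf names differed from this picture in their values, with 3 of 8 above 0 and a median of -0.04. Assembly factors with other names, given further below, did not share this. Among them *Ndufaf8* was at 0.31 (limma padj 0.0779) and *Ndufaf7* at -0.17 (limma padj 0.285).

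*Uqcrh*, the hinge protein of complex III, had the highest log2 fold change after *Cox6b2* and *Atp5g2*. It was at 748, 643, 731 and 801 FPKM in CONTROL-VEH and at 859.9, 972, 855 and 1150.1 in OGD-VEH, without overlap, but missed the threshold (log2 fold change 0.39 ± 0.11, SE, limma padj 0.0604). *Cox8a*, the smallest subunit of complex IV, missed it as well (0.36, limma padj 0.0739). In complex II, *Sdha* was at 193, 163, 150.1 and 167 FPKM in CONTROL-VEH and at 166, 154, 155 and 181 in OGD-VEH, with overlapping groups and a log2 fold change of -0.03. *Sdhb*, *Sdhc* and *Sdhd*, the latter pair being the membrane anchors, were higher in every OGD-VEH culture than in every control, with log2 fold changes of 0.18, 0.30 and 0.25 and limma padj of 0.21, 0.0796 and 0.083. The c ring genes of ATP synthase went apart in their estimates. *Atp5g3* was at 0.22 without overlap (limma padj 0.0754), *Atp5g1* at -0.08 (0.705) and *Atp5g2* at 0.76 (0.266) with OGD-VEH cultures at 15.3, 33.6, 44.4 and 14 FPKM against 20.1, 16.3, 6.79 and 17 in CONTROL-VEH.

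*Atp5s*, a gene near the ATP synthase family in name that encodes coupling factor B, now called Dmac2l, was the 1 member lower in all OGD-VEH cultures. It was at 13.9, 17.8, 17.4 and 19.5 FPKM in CONTROL-VEH and at 11.8, 10.6, 13.5 and 12.6 in OGD-VEH. The log2 fold change was -0.49 ± 0.14 (SE, limma padj 0.0605). The isoforms of complex IV found mainly in other tissues were too low and too variable for a call. *Cox8b*, a heart and muscle isoform, was at 2.45, 0.903, 1.54 and 5.87 FPKM in CONTROL-VEH and at 0, 0, 0.974 and 1.92 in OGD-VEH (limma padj 0.131). *Cox6b2*, the testis isoform of *Cox6b1*, was at 9.64 to 13.4 FPKM in CONTROL-VEH and at 11.6 to 44.2 in OGD-VEH (log2 fold change 0.78, limma padj 0.159), and the highest value was that of culture 12. *Cox6a2* (-0.54) and *Cox7b2* (-0.45) had limma padj of 0.399 and 0.56, and *Ndufv3* of complex I (-0.15) had 0.333. *Ndufa4l2*, the hypoxia-linked paralog of *Ndufa4*, was left out of the 89 genes by its mean. It was at 0.169 to 0.315 FPKM in CONTROL-VEH and at 1.45, 0.956, 0.285 and 1.18 in OGD-VEH (log2 fold change 1.58, limma padj 0.0649), levels that rest on few reads.

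The second comparison asked for the OGD effect in the presence of TIA. In OGD-TIA versus CONTROL-TIA no member was called higher or lower in limma. None of the 16242 genes tested was either (0% in each direction), and an unadjusted p under 0.05 was found for 7 members (7.87%) and for 19.5% of all genes. The 0% belongs to this fit. With isoforms weighted by length 1.09% of all genes were called higher and 0.887% lower. With array quality weights, described below, the shares were 0.665% and 0.523%. The study's own test of counts reported DEGs for this comparison. No member was called in any of the 18 alternative settings. Still 72 of 89 members were above 0, with a median log2 fold change of 0.08 against 0.04 for all genes. In 5 members all OGD-TIA cultures were above all CONTROL-TIA cultures (5.62%, all genes 9.51%), and 1 member was below (1.12%, all genes 6.72%). The medians were 0.08 for complex I, 0.10 for complex II, 0.08 for complex III, 0.08 for complex IV, 0.08 for ATP synthase and -0.02 for complex I assembly factors, and again 11 of 11 ubiquitous complex IV subunits were above 0.

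The 6 genes called in the vehicle arm gave smaller estimates with TIA. *Ndufb9* was at 169, 136, 171 and 157 FPKM in CONTROL-TIA and at 189, 153, 166 and 189.8 in OGD-TIA, with overlap and a log2 fold change of 0.14 (limma padj 0.482). *Cox6c* was at 635, 655, 625 and 644 FPKM in CONTROL-TIA and at 662, 698, 723 and 676 in OGD-TIA, without overlap (0.11, limma padj 0.277). *Cox6b1* was at 2463, 2286, 2326 and 2352 FPKM in CONTROL-TIA and at 2576, 2520.1, 2482 and 2687 in OGD-TIA, also without overlap (0.12, limma padj 0.198). These 3 genes, like the other called ones, thus kept a small positive estimate in the TIA arm that did not pass the threshold. *Atp5j2* was at 361, 311, 349.5 and 323 FPKM in CONTROL-TIA and at 386, 379.8, 374 and 389 in OGD-TIA, without overlap (0.19, limma padj 0.193). *Cox6a1* (0.16, limma padj 0.233) and *Atp5k* (0.11, limma padj 0.304) overlapped between the groups.

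The extremes among the members were uncertain in this arm. *Atp5g2* (0.59), *Cox7a1* (0.50), *Ndufaf6* (0.37), *Cox6b2* (0.31), *Ndufaf4* (0.28) and *Ndufa12* (0.25) had the highest log2 fold changes, with limma padj from 0.221 to 0.769. The lowest were *Cox8b* (-1.18), *Cox6a2* (-0.39), *Atp5s* (-0.27), *Ndufaf3* (-0.15), *Ndufv3* (-0.11) and *Ndufaf2* (-0.06), with limma padj from 0.198 to 0.721. *Atp5s* was again lower in every OGD culture, at 16.7, 15.2, 15.4 and 14.3 FPKM in CONTROL-TIA and at 12, 13.6, 13.7 and 11.7 in OGD-TIA.

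When both arms were fitted together, with OGD and TIA as additive terms over all 16 cultures, OGD had a call in 26 members. Of these 25 were higher (28.1% of the members, 18.7% of all genes) and 1 was lower (1.12%, 13.4% of all genes). With the median-ratio scaling the numbers were 17 higher and 3 lower, and all genes were at 15% higher and 16% lower. The median log2 fold change was 0.14, against 0.08 for all genes. The genes called higher, given here because they were called, were *Ndufs7* of the complex I core, the accessory subunits *Ndufa7*, *Ndufa11*, *Ndufa12*, *Ndufa13*, *Ndufb7*, *Ndufb8* and *Ndufb9* and the assembly factor *Ndufaf4*, *Sdhc* and *Sdhd* of complex II, *Uqcrb*, *Uqcrh* and *Uqcrq* of complex III, *Cox6a1*, *Cox6b1*, *Cox6c* and *Cox8a* of complex IV, and *Atp5e*, *Atp5f1*, *Atp5g3*, *Atp5j*, *Atp5j2*, *Atp5k* and *Atp5l* of ATP synthase.

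*Atp5j2* had the smallest padj of these (log2 fold change 0.27, 95% interval 0.16 to 0.38, limma padj 0.00336). *Uqcrh* (0.29, limma padj 0.00854) and *Ndufaf4* (0.29, limma padj 0.0494) had the highest estimates. The 25 estimates ran from 0.14 (*Atp5f1*) to 0.29. *Atp5s* fell by 0.38 on the log2 scale (95% interval -0.56 to -0.20, limma padj 0.00539). In 13 of the 26, *Ndufa12*, *Ndufb7*, *Ndufb9*, *Sdhd*, *Uqcrb*, *Uqcrh*, *Cox6a1*, *Cox6b1*, *Cox6c*, *Atp5j*, *Atp5j2*, *Atp5k* and *Atp5l*, the call held in all 25 alternative settings, including each omission of 1 culture.

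**Figure D3:**
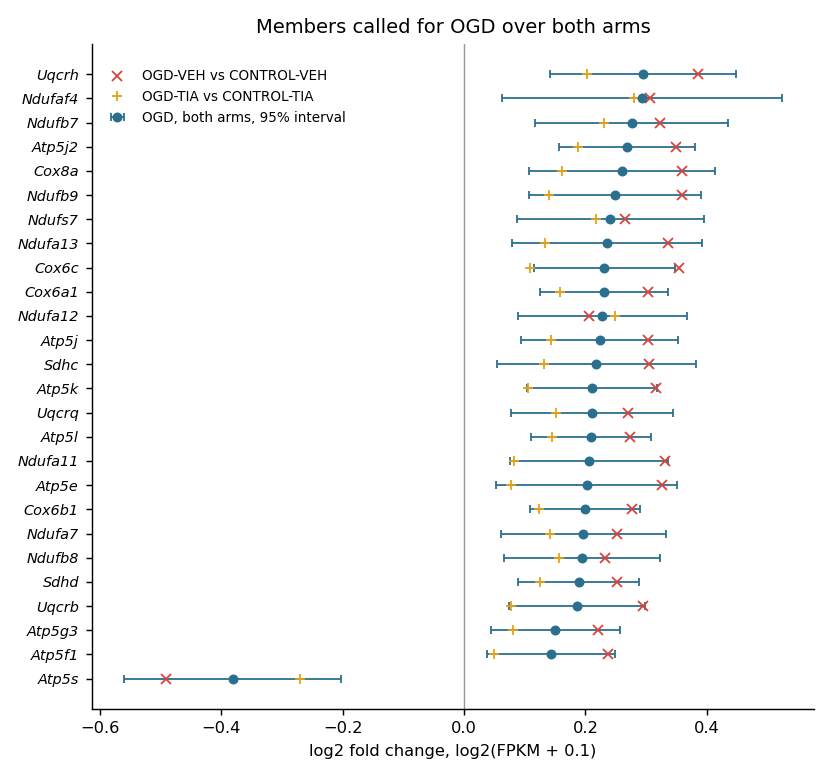
Log2 fold change with 95% interval for the 26 members called for OGD over both arms (circles), with the separate estimates of the vehicle arm (crosses) and the TIA arm (plus signs). In 24 of the 25 genes that rose the vehicle estimate lies right of the TIA estimate, *Ndufa12* being the exception, and *Atp5s* alone lies left of 0.

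Promoters of members called over both arms are shown because transcription factors of the nuclear respiratory programme, NRF1, GABP (an ETS factor) and YY1, are known to bind upstream of many such genes. The windows come from RefSeq on GRCm38.p6 and hold 250 bases before and 50 after a start. All 89 genes matched by symbol or synonym and 76 had a window, of which 15 (19.7%) held an NRF1 core (GCGCATGCG or GCGCACGCG on either strand), against 3.8% of the 27025 genes in the table. An ETS core (CCGGAAG, either strand) was in 18 (23.7%, all genes 9.93%) and a YY1 core (AAGATGGCG, either strand) in 8 (10.5%, all genes 1.64%). Of the 26 called members 21 had a window, with an NRF1 core in 6, an ETS core in 10 and a YY1 core in 3. An ETS core can share its last letters, AAG, with the start of a YY1 core, so 1 stretch can count for both. A match describes the sequence only. The 3 stretches below, picked by hand to show a subunit of complex I, of complex IV and of ATP synthase, hold an NRF1 core upstream of every isoform start in the deposited table, as do the windows of *Ndufaf4* and *Sdhd*, and end before the first such start. All are given 5′ to 3′ on the strand of the gene, with NRF1 and ETS cores on either strand in capitals. They are chr5:115348982-115349208 (minus strand), chr17:56717512-56717761 (plus strand) and chr9:44920743-44920992 (minus strand).
Cox6a1: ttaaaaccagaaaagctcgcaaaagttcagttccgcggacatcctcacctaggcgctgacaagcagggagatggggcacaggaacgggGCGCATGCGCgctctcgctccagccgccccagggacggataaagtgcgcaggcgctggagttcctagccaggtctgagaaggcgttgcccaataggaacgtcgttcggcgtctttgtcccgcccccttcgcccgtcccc
Ndufa11: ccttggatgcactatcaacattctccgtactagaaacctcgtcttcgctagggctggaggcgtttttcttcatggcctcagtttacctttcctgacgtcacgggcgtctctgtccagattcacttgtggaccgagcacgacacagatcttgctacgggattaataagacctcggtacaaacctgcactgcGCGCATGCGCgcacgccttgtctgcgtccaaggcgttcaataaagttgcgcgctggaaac
Atp5l: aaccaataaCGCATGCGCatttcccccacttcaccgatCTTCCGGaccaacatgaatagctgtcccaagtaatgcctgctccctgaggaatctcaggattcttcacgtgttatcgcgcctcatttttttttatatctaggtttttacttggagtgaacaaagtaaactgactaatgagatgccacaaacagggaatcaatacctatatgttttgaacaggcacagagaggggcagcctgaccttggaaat
The first base of the NRF1 core lies 162 bases before the RefSeq start in *Cox6a1*, 60 in *Ndufa11* and 241 in *Atp5l*, where an ETS core follows.

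TIA was then compared within each condition. In CONTROL-TIA versus CONTROL-VEH no member was called in either direction, as was the case for all genes (0% higher and 0% lower), and 1 member, *Ndufb5*, had an unadjusted p under 0.05 (all genes 3.84%). *Ndufb5*, an accessory subunit of complex I, was at 399, 364, 392 and 392 FPKM in CONTROL-VEH and at 372, 310.1, 326 and 262 in CONTROL-TIA, with overlap (log2 fold change -0.29, limma padj 0.999). *Ndufaf6*, an assembly factor, was at -0.52 with the same padj. The median over the members was -0.05 (all genes -0.005), and 15 of 89 were above 0 (all genes 48.5%). It depended on single cultures. Without CONTROL-TIA culture 6 it was -0.01 with 34 above 0, and without CONTROL-TIA culture 5 it was -0.10 with 11 above 0.

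In OGD-TIA versus OGD-VEH the members were lower in their estimates, although none was called (all genes 0% higher and 0% lower in limma). The median log2 fold change was -0.16, against -0.05 for the 16351 genes tested, and 12 of 89 members were above 0. An unadjusted p under 0.05 was found for 28 members (31.5%), against 7.91% of all genes. All OGD-TIA cultures were below all OGD-VEH cultures in 17 members (19.1%), against 2.51% of all genes, and in no member were they above (all genes 1.3%). Since these transcripts move together within a culture, as the medians below show, the 17 genes are not 17 separate observations. The count was 15 with median-ratio scaling (all genes 1.99%) and also 15 with isoforms weighted by length (2.49%). It was 36 without OGD-VEH culture 9 (12.8%) and 26 without OGD-TIA culture 16 (9.87%), omissions that cannot lower it. With limma array quality weights, by which deviating cultures count less, 20 members were called, 19 of them lower, and of all genes 3.49% were called higher and 5.93% lower. The 17 genes were *Uqcr10*, *Uqcr11*, *Uqcrb* and *Uqcrq* of complex III, *Ndufa1*, *Ndufa5*, *Ndufa7*, *Ndufa11*, *Ndufb9* and *Ndufc2* of complex I, *Cox4i1*, *Cox6b1*, *Cox7b* and *Ndufa4* of complex IV, and *Atp5j2*, *Atp5k* and *Atp5o* of ATP synthase.

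*Uqcr11*, a small subunit of complex III, had the smallest p. It was at 511, 619, 596 and 639 FPKM in OGD-VEH and at 455, 403, 468 and 496 in OGD-TIA. The groups did not overlap (exact permutation p = 0.0286, two-sided, which any gene without overlap gets). The log2 fold change was -0.38 with a 95% interval of -0.60 to -0.15 (limma padj 0.551). *Ndufa4* was at 1534, 1725, 1777 and 1681 FPKM in OGD-VEH and at 1424, 1413, 1446 and 1471 in OGD-TIA, likewise apart (-0.22, 95% interval -0.36 to -0.09, limma padj 0.551). In both genes the OGD-TIA values lay within or near the range of the CONTROL-VEH cultures, which were at 433 to 555 and 1341 to 1612 FPKM. By complex the medians were -0.16 for complex I, -0.11 for complex II, -0.21 for complex III, -0.20 for complex IV and -0.17 for ATP synthase.

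Whether the OGD effect differed between the arms was tested with the interaction over all 16 cultures. No member was called (all genes 0% higher and 0% lower in limma), and 4 members had an unadjusted p under 0.05 (4.49%, all genes 6.06%). The median of the members was -0.10, which means smaller OGD effects with TIA, against -0.04 for all genes. *Cox6c* (-0.25, 95% interval -0.44 to -0.05) and *Atp5k* (-0.21, 95% interval -0.40 to -0.02) had the smallest p, both with a limma padj of 0.722. A difference between the arms was thus not shown for any single gene, and the intervals do not exclude one.

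**Figure D4:**
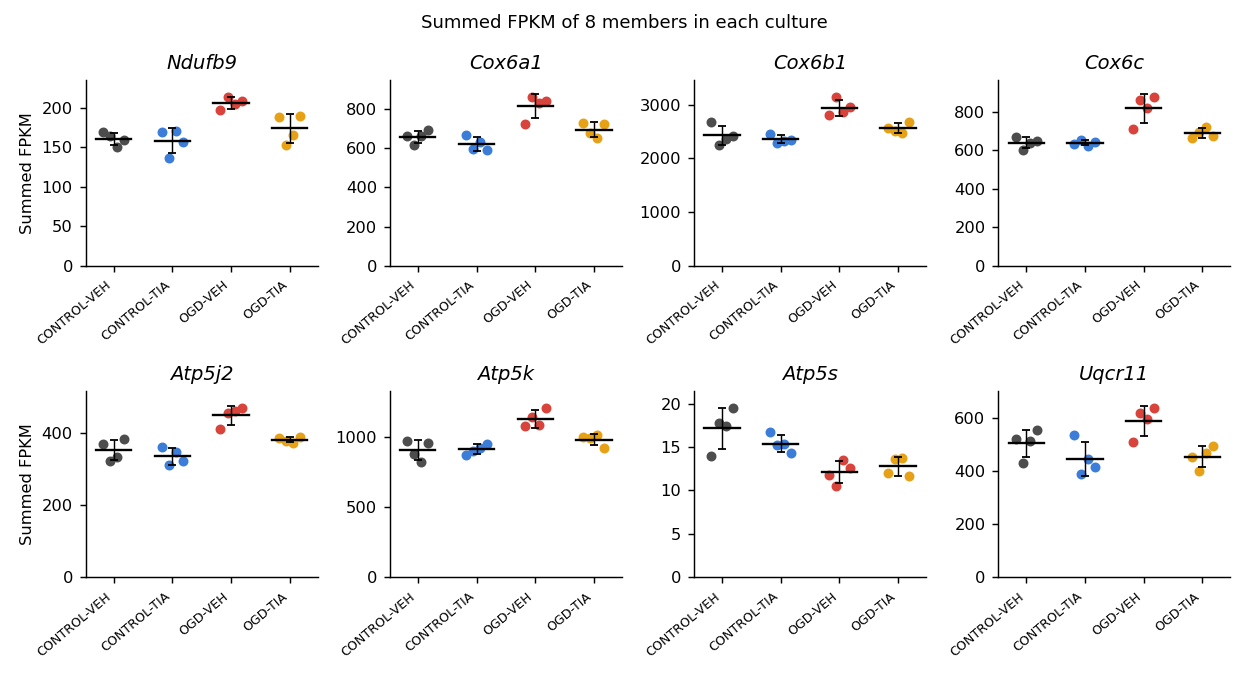
Summed FPKM of the 6 genes called in OGD-VEH versus CONTROL-VEH, of *Atp5s* and of *Uqcr11* in each of the 16 cultures, with bars for mean and SD (n = 4) and axes from 0. The OGD-VEH points lie above the CONTROL-VEH points without overlap in the 6 called genes, below them in *Atp5s*, and above all OGD-TIA points in *Ndufb9*, *Cox6b1*, *Atp5j2*, *Atp5k* and *Uqcr11*.

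The members varied together from culture to culture. For each culture the median deviation of the 89 genes from their own mean over the 4 CONTROL-VEH cultures was computed on the log2 scale. It was 0.10, 0.22, 0.16 and 0.26 in OGD-VEH cultures 9 to 12 and 0.07, 0.01, 0.01 and 0.01 in OGD-TIA cultures 13 to 16. The control cultures were at 0.07, -0.11, 0.00 and 0.05 (CONTROL-VEH) and at 0.08, -0.14, -0.06 and -0.08 (CONTROL-TIA). All 4 OGD-VEH cultures were thus above all other cultures, as they were for the subunits of each of complexes I to IV and of ATP synthase taken alone. For all 16313 genes OGD-VEH cultures 10 to 12 were likewise the 3 highest of the 16, at 0.12, 0.11 and 0.15, while OGD-VEH culture 9 was at 0.01 and OGD-TIA culture 16 at 0.08. Within a group the members were tight, with a median SD of 0.10 to 0.14 on the log2 scale against 0.15 to 0.25 for the genes above 10 FPKM, and the least stable was *Cox8b*.

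**Figure D5:**
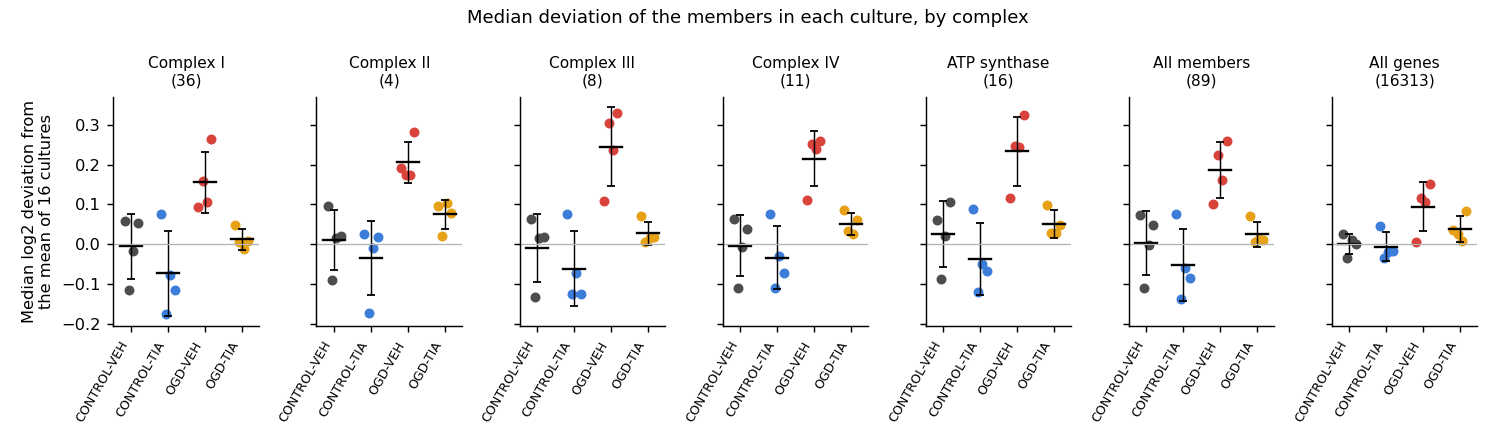
Median log2 deviation of the subunits of each complex, of all 89 members and of all 16313 genes, 1 point per culture. Bars give the mean and SD of the 4 cultures of each group. Deviations are from each gene's mean over the CONTROL-VEH cultures, although the axis label names the mean of 16 cultures. The OGD-VEH cultures stand highest for all members (0.10 to 0.26), while the OGD-TIA cultures (0.01 to 0.07) lie within the range of the controls.

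Markers of cell types moved with OGD as well. The summed neuron markers were at 2366, 1766, 1714 and 1116 FPKM in OGD-VEH cultures 9 to 12 and at 2554, 2596, 2673 and 1565 in OGD-TIA cultures 13 to 16. Among the neuron markers *Syt1*, a synaptic vesicle protein, was called lower in OGD-VEH (log2 fold change -1.52, limma padj 0.0447), and 6 of 7 were called lower over both arms. Of 6 oligodendrocyte lineage markers tested 3 were called higher and 1 lower, with *Olig1* (1.25, limma padj 0.0339) and *Olig2* (1.41, limma padj 0.0347) among the former. OGD-TIA culture 16, with the lowest neuron markers of its arm and with astrocyte markers at 1219 FPKM against 483 to 589 in cultures 13 to 15, had a member median of 0.01 like cultures 14 and 15. In the vehicle arm culture 12 had the lowest neuron markers, the highest astrocyte markers (1659 FPKM) and the highest member median. The part of cell composition in the results on the members was not tested.

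Genes that act with the members but carry other names gave the following. Of the 13 subunits encoded by mitochondrial DNA, 3 were called higher in OGD-VEH versus CONTROL-VEH, all of complex I: *mt-Nd1* (0.25, limma padj 0.0479), *mt-Nd2* (0.26, limma padj 0.0425) and *mt-Nd3* (0.47, limma padj 0.0447). These calls, and that of *Cox17* below, lay just inside the threshold. In the same fit the genes called higher fell from 816 to 55 or fewer in most omissions of 1 culture. The median of the 13 was 0.11 (all genes 0.10), with 10 above 0, and *mt-Co1* (-0.02) and *mt-Co2* (0.00) of complex IV were near 0. With TIA none was called and the median was 0.05. *Cyc1*, the cytochrome c1 subunit of complex III that the naming rule does not reach, was at 0.08 (limma padj 0.556), and *Cycs*, the cytochrome c that carries electrons from complex III to complex IV, at 0.04 (limma padj 0.925). Among 39 assembly factors tested that the naming rule does not reach, 28 were above 0 in OGD-VEH versus CONTROL-VEH, with a median of 0.11. Of the 39, 1 was called higher. This was *Cox17*, the copper chaperone of complex IV, at 91.5 ± 13.7 FPKM in CONTROL-VEH and 131 ± 4 in OGD-VEH (SD, n = 4, log2 fold change 0.53, limma padj 0.0409), while it was at 94.8 ± 17.3 in CONTROL-TIA and 101 ± 18.5 in OGD-TIA (0.09, limma padj 0.779). None of 12 regulators of mitochondrial biogenesis was called in OGD-VEH (9 above 0, median 0.36), among them *Nrf1* (0.41, limma padj 0.0971) and *Tfam* (0.34, limma padj 0.106), the activator and packaging protein of mitochondrial DNA.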

How the data were processed

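RNA was sequenced from 16 cultures, 4 per group. Per the labels, libraries were prepared with a stranded mRNA kit, read as 50-base single ends, aligned with STAR to GRCm38 by the authors, without stated versions. The study's methods name Ensembl 92 and eXpress for isoforms. The unit of the deposited table, TMM-scaled FPKM for each isoform, is known from its name, so mapping, isoform assignment and scaling are already in them. Reads shared between isoforms, paralogs or pseudogenes were divided by probability there. Replicates were not pooled. Of 135276 lines, 74 have no identifier and were left out.

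Isoform FPKM were summed per gene symbol (*Atp5o* carries 2 Ensembl genes), and log2(FPKM + 0.1) was fitted with limma 3.58.1 in R 4.3.3 (empirical Bayes with trend). A gene entered a comparison if its cultures averaged 0.5 FPKM or more. Each pair comparison used its 8 cultures, and the interaction and the additive OGD term used all 16. The test of counts that the authors used was not run on FPKM. Exact permutation tests were two-sided. Depth was estimated from the smallest value steps of single-isoform genes, and no counting intervals were computed. The fits were tested on simulated data with log2 changes of 1 or more and independent noise for each gene. Smaller changes, such as those of the called members, and genes that move together were not simulated. Isoform types and lengths are from GENCODE M21 (99.82% of isoforms found), and promoter windows from RefSeq. Remaining steps ran in Python 3.11.15 (pandas 2.3.3 and numpy 2.4.6 for sums, scipy 1.17.1 for permutations, figures by matplotlib 3.10.9).

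The members and gene lists were chosen with earlier results of these data known. Named were, in each OGD comparison, the 6 members with the highest and the 6 with the lowest log2 fold change, in each TIA comparison and the interaction the 2 with the smallest p, in each role the highest and lowest level, and fixed isoform pairs, c ring and Sdh genes, plus 2 genes per further list. For the markers of endothelium, mural cells and fibroblasts, 2 of 7 genes were tested in OGD-VEH versus CONTROL-VEH and none was called. Alternatives were other pseudocounts, filters, scaling, weights, isoform summaries, a fit of all cultures and leaving out each culture.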

Additional observations from a re-analysis of the deposited data

Results flagged for a closer look

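Within groups of 4 cultures, single cultures were set apart from the other 3 by Dixon's criterion in 10 of 180 groups checked (44 members and their median), and chance flags about 1 in 20 groups. CONTROL-TIA culture 5 stood high for 3 genes. It was at 4.41 FPKM for *Cox6a2* (others 2.9 to 3.09), at 16.1 for *Ndufaf7* (15.1 to 15.2) and at 275 for *Ndufv3* (221 to 224). OGD-TIA culture 16 stood high for *Cox7a2l* with 139 FPKM (129 to 131) and for *Ndufa11* with 15.1 (14 in the others). In CONTROL-VEH, culture 4 was low for *Ndufaf4* with 18.9 FPKM (25.9 to 26.1), culture 1 was high for *Ndufs8* with 51.2 (46.1 to 46.4), and culture 2 was low for *Sdhb* with 84.4 (96.5 to 99.1). OGD-VEH culture 10 was high for *Ndufaf6* with 30.7 FPKM (13.3 to 15.2). The median deviation of the 89 members in OGD-TIA culture 13 was 0.0721 (0.01 in the others). No interaction between OGD and TIA was called for a member.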

How the results depend on the processing

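For OGD-VEH versus CONTROL-VEH the 6 calls became 0 without a filter on low values, 1 with median-ratio scaling and 0 with the highest isoform only. With array quality weights they were 40 (39 higher, 1 lower, where 23.1% and 15.7% of all genes were called). With isoforms weighted by length they were 22 (21 higher, 1 lower, all genes 15.3% and 9.79%). With all 16 cultures in 1 fit they were 29 (28 higher, 1 lower, all genes 15.9% and 12.3%). When 1 culture was left out they were 0 to 26 (all genes 0.0061 to 30.5% in either direction). They were 5 to 7 under the other 4 settings, the pseudocounts 1 and 0.01, a minimum of 2 FPKM and robust empirical Bayes. None of the 6 genes changed sign under the 18 alternatives, and each stayed called in 7 to 9 of them. The median over the members was 0.11 with median-ratio scaling and 0.15 to 0.22 with 1 culture left out. In OGD-TIA versus OGD-VEH, array quality weights gave 20 calls (1 higher, 19 lower, all genes 3.49% and 5.93%) and the other 17 alternatives 0. For OGD over both arms the 26 calls became 15 without a filter (14 higher, 1 lower, all genes 3.82% and 2.54%). They became 40 with isoforms weighted by length (38 higher, 2 lower, all genes 27.8% and 17.3%). With 1 culture left out they were 19 to 39, where 24.6 to 37.3% of all genes were called in either direction. None of the 26 genes changed sign. *Atp5s* was called there in 24 of 25 alternatives. For the counts of members without overlap the alternatives were chosen after seeing the data. With 1 culture left out they were 19 to 36 for OGD-TIA below OGD-VEH (all genes 3.22 to 12.8%). For OGD-VEH above CONTROL-VEH they were 24 to 39 (all genes 13.5 to 25.7%). Leaving out a culture cannot lower such a count, so these ranges do not test whether it holds. The other counts kept within 1.5 times. No median changed sign, and the other medians moved by less than the SD between cultures of a group (0.0713). That limit is wide for medians of this size. With median-ratio scaling the median went from 0.14 to 0.08 for OGD over both arms and from 0.08 to 0.04 in OGD-TIA versus CONTROL-TIA. For the interaction it went from -0.10 to -0.06. Among the named genes without a call, 4 changed sign in an alternative, *Atp5s*, *Cox6b2* and *Cox7a1* in OGD-TIA versus CONTROL-TIA and *Ndufaf6* in CONTROL-TIA versus CONTROL-VEH. The cause of these shifts was not tested. No paired analysis was made. The cultures are numbered 1 to 16, and the labels do not say whether cultures of different groups share a preparation. Summed astrocyte markers were highest in the last culture of each group (775, 543, 1659 and 1219 FPKM in cultures 4, 8, 12 and 16). Neuron markers had no such order and were highest in cultures 4, 7, 9 and 15. Pairing by position within the group was not tested. Low isoforms such as *Cox8b* rest on few reads, and no count table was used here.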
